A study of Canis lupus familiaris with 8 samples.

Results

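Genes of calcium release and uptake were examined in the left ventricle of 8 male mongrel dogs, and the RNA of each dog had been hybridized to its own Affymetrix Canine Genome Array. The genes asked for were ATP2A2, RYR2, PLN, CASQ2 and SLC8A1, and a probe set was taken where the annotation of the array gave it only 1 of these symbols. ATP2A2 had 10 such probe sets, RYR2 had 4 and SLC8A1 had 1, which makes 15 of the 23836 probe sets tested. No probe set is annotated to PLN or CASQ2 in the annotation used here, so phospholamban and cardiac calsequestrin were not analysed. The 4 control dogs (D5, D6, D7 and D8) were instrumented and kept without alloxan. The 4 diabetic dogs (DM dogs 0292, 0294, 1087 and 1111) had received 40 to 60 mg/kg of alloxan intravenously, and their hearts were taken after 4 weeks. Alloxan destroys the beta cells of the pancreas, so the model is one of insulin lack. According to the methods some dogs were injected again, and which ones is not given in the sources used here. Ages of the dogs are not given either.

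In cardiac muscle each beat begins with calcium that enters through the channel of the cell membrane and opens the ryanodine receptor of the sarcoplasmic reticulum, RYR2. The released calcium starts contraction and is then returned to the reticulum by the pump SERCA2, which ATP2A2 encodes. Phospholamban restrains that pump, calsequestrin binds calcium within the reticulum, and the sodium-calcium exchanger NCX1, encoded by SLC8A1, carries calcium out of the cell. SERCA2, RYR2 and NCX1 are abundant in the ventricle of a mammal. Less SERCA2 and more NCX1 are known from several models of heart failure.

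The deposited values are signal intensities on a linear scale, 1 per probe set and dog, and each array had been brought to the same trimmed mean by the authors. Before the comparison the arrays were quantile normalized, and the log2 of signal plus an offset of 16 was used. A difference below is the mean of DM dogs minus that of control dogs on this log2 scale, from limma fitted over all 23836 probe sets, with p values adjusted by Benjamini-Hochberg. Probe sets bind their targets with unequal strength, so differences in signal between probe sets are not differences in the amount of RNA. The brightest probe set of a gene is the one with the highest mean normalized signal over the 8 dogs. Probe sets whose name ends in s_at or x_at were designed with probes that may match further transcripts. The dogs are the replicates.

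Some measures of the arrays moved with the groups. Hybridization controls, which are transcripts added in fixed amounts, had a mean deposited signal of 13.09 to 13.36 log2 in D5, D6 and D7, of 15.77 in D8, and of 15.17 to 17.72 in DM dogs (exact permutation test, two-sided p = 0.0571). The array of D8 thus resembled those of DM dogs in this measure. The log2 signal of the 3′ minus the 5′ probe set of actin, which rises as RNA is degraded or copied only in part, divided the dogs in the same way, with 1.69, 1.35 and 3.04 in D5, D6 and D7, 7.79 in D8 and 3.59 to 7.71 in DM dogs (p = 0.229 by the exact permutation test). The same measure for GAPDH had the opposite direction, with a mean of 3.60 for controls and 1.92 for DM (p = 0.171 by the exact permutation test). Of 14 cardiomyocyte markers 10 were measured, and all 10 had lower means in DM dogs. In limma 9 of them were lower at an unadjusted p under 0.05, where 8.97% of all tested probe sets were. At an adjusted p under 0.05 limma called 0 of them, and 0.0168% of all. The summed level of the 10 was 17.57 to 18.96 log2 in control dogs and 16.27 to 17.32 in DM dogs. TNNI3, the cardiac troponin I, had a difference of -5.62 (adjusted p = 0.0606), and MB, myoglobin, one of -5.03 (adjusted p = 0.0606). MYH7, a slow myosin heavy chain that ventricle and slow skeletal muscle share, averaged 16.42 log2 for controls and 15.93 for DM (-0.48, adjusted p = 0.685) and was the only one of the 10 without an unadjusted p under 0.05. In a piece of tissue, fewer cardiomyocytes and less RNA of a gene per cardiomyocyte cannot be told apart. Whether the array measures or the cardiomyocyte markers had a part in the results below was not tested.

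Of the 15 probe sets, 11 had a negative difference and 4 a positive one, with a median of -0.29 log2, where all tested probe sets had a median of 0.06. At an adjusted p under 0.05 limma called 0 of the 15, and 0.0168% of all tested probe sets. At an unadjusted p under 0.05, 3 of the 15 were lower, against 8.97% of all probe sets, and 1 was higher, against 7.79%. The study's own criteria (P no higher than 0.01 by the methods' t-test, with a 2-fold or greater change) were met by 1 lower probe set (2.48% of all) and by 1 higher (2.44% of all). Control and DM dogs did not overlap in 4 probe sets that were lower in DM dogs (5.87% of all) and in 1 that was higher (4.93% of all). The adjusted p of the 15 ran from 0.0847 to 0.991.

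**Figure D1:**
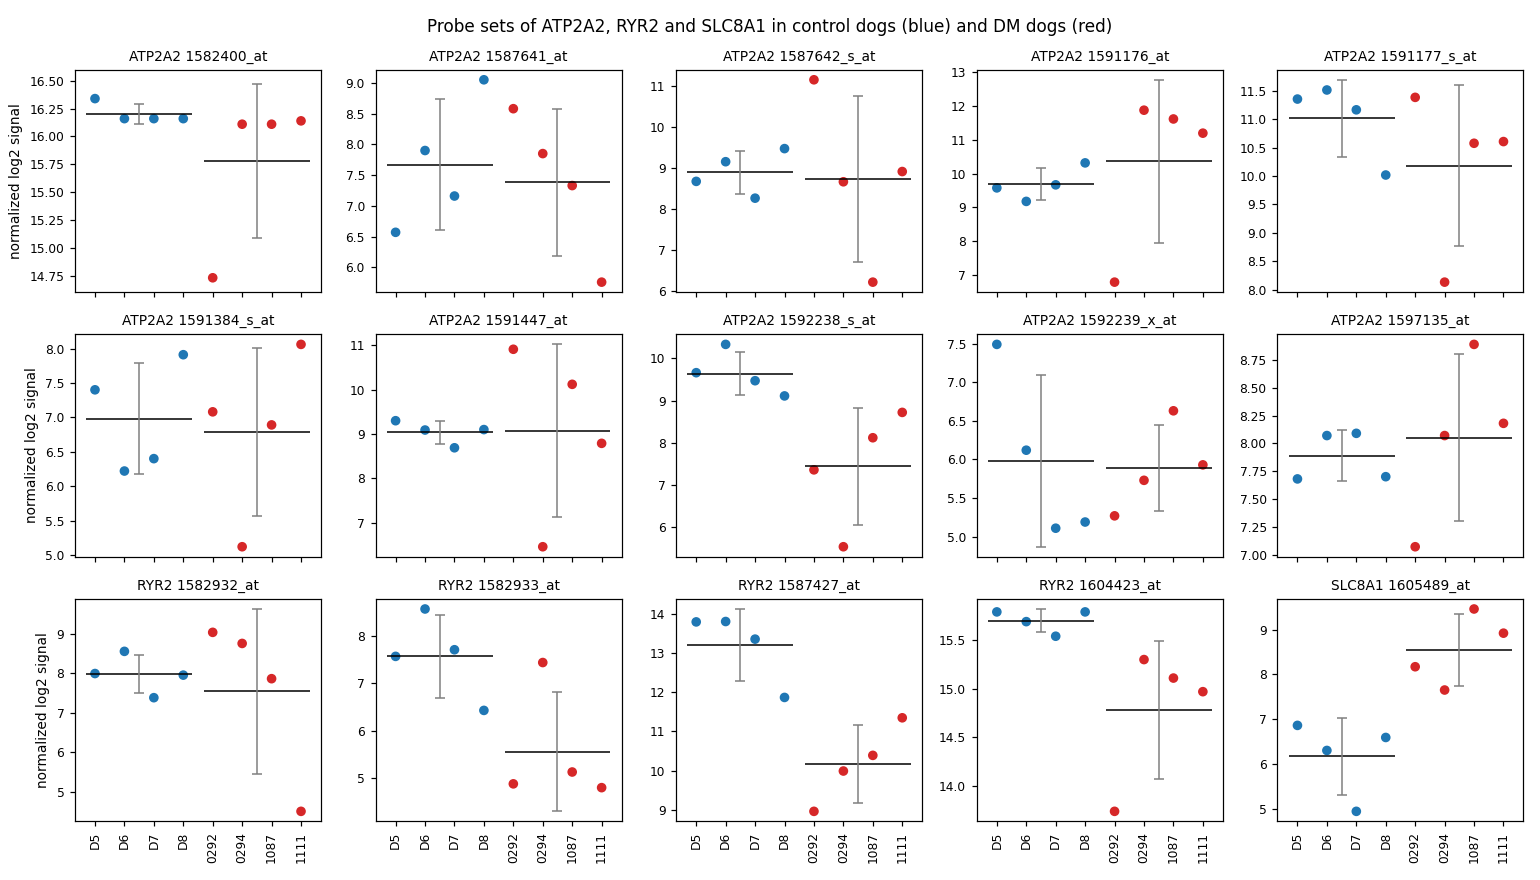
Normalized log2 signal (y axis, with its own range in each panel) of each of the 15 probe sets in each dog (x axis). Blue points are the 4 control dogs and red points the 4 DM dogs, black lines are group means and grey bars are 1 SD. The groups do not overlap in RYR2 1587427_at and 1604423_at, ATP2A2 1582400_at and 1592238_s_at, and SLC8A1 1605489_at, and dog 0292 lies far below the other DM dogs in ATP2A2 1582400_at.

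The largest difference among the 15 was in a probe set of RYR2, the calcium release channel. Its deposited signal in 1587427_at was 12580 in D5, 11422 in D6, 9699 in D7 and 3850 in D8, and 789 in 0292, 817 in 0294, 1140 in 1087 and 3022 in 1111. All DM dogs were below all control dogs, and D8 and 1111 were the nearest to each other. The normalized mean was 13.21 ± 0.92 log2 for controls and 10.17 ± 0.99 for DM (SD, n = 4 per group). The difference was -3.04 (SE 0.69, 95% interval -4.53 to -1.54, limma adjusted p = 0.0847), which corresponds to an 8.21-fold lower level. The methods' t-test gave a P of 0.00410 before adjustment. This probe set met the criteria of the methods here. The study picked it out on these same dogs, so its direction is not independent evidence.

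The other 3 probe sets of RYR2 had negative differences too, but only in part from separate groups. In 1604423_at the deposited signal was 26265, 21136, 25333 and 83140 in D5 to D8, and 7420, 73130, 58235 and 38764 in 0292, 0294, 1087 and 1111. On this scale the groups overlapped widely, with D8 the highest of all dogs and 0292 the lowest. After quantile normalization control dogs had 15.54 to 15.79 log2 and DM dogs 13.74 to 15.30, without overlap, and the difference was -0.92 (SE 0.58, 95% interval -2.17 to 0.33, adjusted p = 0.449). It was -0.48 without 0292. On the deposited scale it was 0.02, so the direction in this probe set depended on the scaling. The mean over all 4 RYR2 probe sets had a difference of -1.60 (SE 0.50, adjusted p = 0.112). Among the tested probe sets of each array 1604423_at ranked 59 to 75 in control dogs and 96 to 323 in DM dogs, counted from the brightest.

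The remaining pair of RYR2 probe sets was designed on the same source sequence and had low signals. In 1582933_at control dogs had 6.43 to 8.57 log2, and DM dogs had 4.88, 7.44, 5.13 and 4.80 in 0292, 0294, 1087 and 1111. Dog 0294 lay within the control range and the other 3 DM dogs below it. The difference was -2.01 (SE 0.74, unadjusted p = 0.0172, adjusted p = 0.201). In 1582932_at the values were 7.99, 8.55, 7.38 and 7.95 in control dogs and 9.03, 8.75, 7.86 and 4.51 in DM dogs. Here 0292 and 0294 were above all control dogs and 1111 was far below them, and the difference was -0.43 (SE 0.89, adjusted p = 0.844). Without 1111 it was 0.58. Deposited signals of this pair were 5.22 to 811, and detection calls were not used, and whether the lowest exceed background was not tested.

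**Figure D2:**
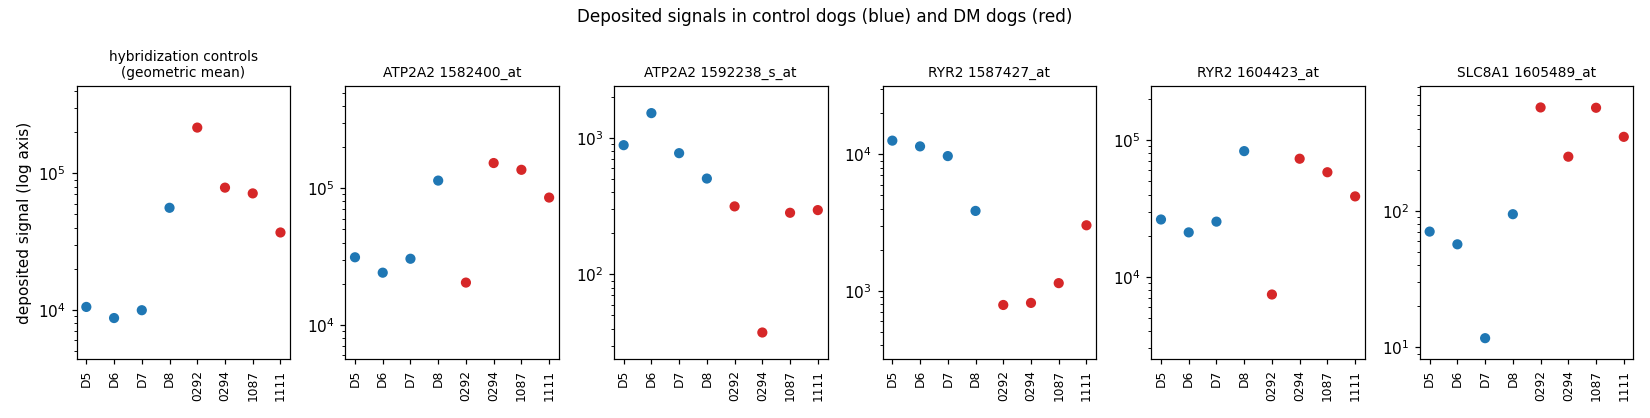
Deposited signal (y axis, logarithmic) by dog (x axis) for the hybridization controls, given as their geometric mean, and for 5 probe sets of the 3 genes, with control dogs in blue and DM dogs in red. ATP2A2 1582400_at and RYR2 1604423_at are higher in D8, 0294, 1087 and 1111 than in D5, D6 and D7 and lowest in 0292, while RYR2 1587427_at and ATP2A2 1592238_s_at are lower in all 4 DM dogs and SLC8A1 1605489_at is higher in all 4.

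ATP2A2, the gene of the calcium pump, gave no common direction across its 10 probe sets. Of these, 7 had a negative and 3 a positive difference, with a range from -2.21 to 0.68 and a median of -0.17 log2. In 9 of the 10 the 95% interval of the difference spanned 0, and in 8 the groups overlapped. The exception in both respects was 1592238_s_at. Its deposited signal was 881, 1512, 770 and 502 in D5 to D8, and 314, 37.5, 282 and 295 in 0292, 0294, 1087 and 1111. Each DM dog was lower than each control dog, and 0294 was the lowest by far. The normalized mean was 9.64 ± 0.51 log2 for controls and 7.44 ± 1.38 for DM (SD, n = 4 per group). The difference was -2.21 (SE 0.72, 95% interval -3.77 to -0.65, unadjusted p = 0.00895, adjusted p = 0.159), a level 4.62-fold lower. It was -1.65 without 0294. The study picked this probe set out too, so it is not independent evidence either. The methods' t-test gave a nominal P of 0.0238 here, above their limit. It was run on the values used here, whereas the methods name RMA values.

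The brightest probe set of ATP2A2 was 1582400_at. Its deposited signal was 31241 in D5, 24101 in D6, 30476 in D7 and 113762 in D8, and 20396 in 0292, 152912 in 0294, 136438 in 1087 and 85457 in 1111. Thus D8 and 3 of the DM dogs formed the high values, and D5, D6, D7 and 0292 the low ones. By rank on each array the dogs hardly differed. Counted from the brightest, the probe set ranked 32 to 40 in control dogs, 38 to 40 in 0294, 1087 and 1111, and 145 in 0292. After quantile normalization, which keeps only the rank, control dogs had 16.16 to 16.34 log2, 0294, 1087 and 1111 had 16.11 to 16.14, and 0292 had 14.73. The groups did not overlap by this narrow margin, and the difference of -0.43 (SE 0.58, 95% interval -1.67 to 0.82, adjusted p = 0.751) came to -0.07 without 0292. On the deposited scale it was 0.95.

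Against the hybridization controls of the same array, both bright probe sets lost much of their spread among control dogs. The log2 signal of ATP2A2 1582400_at exceeded the controls by 1.57, 1.46, 1.61 and 1.03 in D5 to D8, and by -3.40, 0.96, 0.94 and 1.21 in 0292, 0294, 1087 and 1111 (exact permutation test, p = 0.0571). Outside 0292 these values ran from 0.94 to 1.61, with 1111 above D8. For RYR2 1604423_at the same measure was 1.32, 1.27, 1.34 and 0.57 in control dogs and -4.86, -0.11, -0.29 and 0.07 in DM dogs. Here every DM dog was below every control dog (exact permutation test, p = 0.0286, the smallest that 70 assignments of 4 dogs against 4 allow). The hybridization controls differed between the groups themselves, so this measure carries their difference along.

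The other ATP2A2 probe sets divided the dogs in several ways. In 1591176_at the normalized values were 9.18 to 10.32 log2 in control dogs and 6.79, 11.88, 11.62 and 11.20 in 0292, 0294, 1087 and 1111, so that 3 DM dogs were above all control dogs and 0292 below them. The difference was 0.68 (SE 0.98, 95% interval -1.43 to 2.79, adjusted p = 0.766), and 2.02 without 0292. Its partner 1591177_s_at, from the same source sequence, had 11.36, 11.52, 11.17 and 10.02 in control dogs and 11.39, 8.13, 10.58 and 10.61 in DM dogs. In that probe set 0294 was the lowest and 0292 stood with the control dogs, and the difference was -0.84 (SE 0.75, adjusted p = 0.606). It was -0.15 without 0294. Thus 0292 and 0294 exchanged places between both probe sets of this pair.

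In 1591447_at and 1587642_s_at the DM dogs were spread on either side of the control dogs. The former had 8.69 to 9.30 log2 in the controls and 10.91, 6.46, 10.12 and 8.79 in DM dogs, with a difference of 0.03 (SE 0.85). The latter had 8.26 to 9.47 in control dogs and 11.15, 8.66, 6.21 and 8.91 in DM dogs, with a difference of -0.16 (SE 0.88). The SD of DM dogs was 1.95 and 2.02, against 0.26 and 0.53 in control dogs, so these means say little about any 1 DM dog. The last 4 probe sets, 1587641_at, 1591384_s_at, 1592239_x_at and 1597135_at, had normalized values of 5.11 to 9.05 in control dogs and 5.12 to 8.89 in DM dogs, with differences from -0.29 to 0.17 and SE of 0.59 to 0.75. Their intervals still allow changes of about the size seen in other probe sets, such as -1.91 to 1.34 log2 in 1587641_at.

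**Figure D3:**
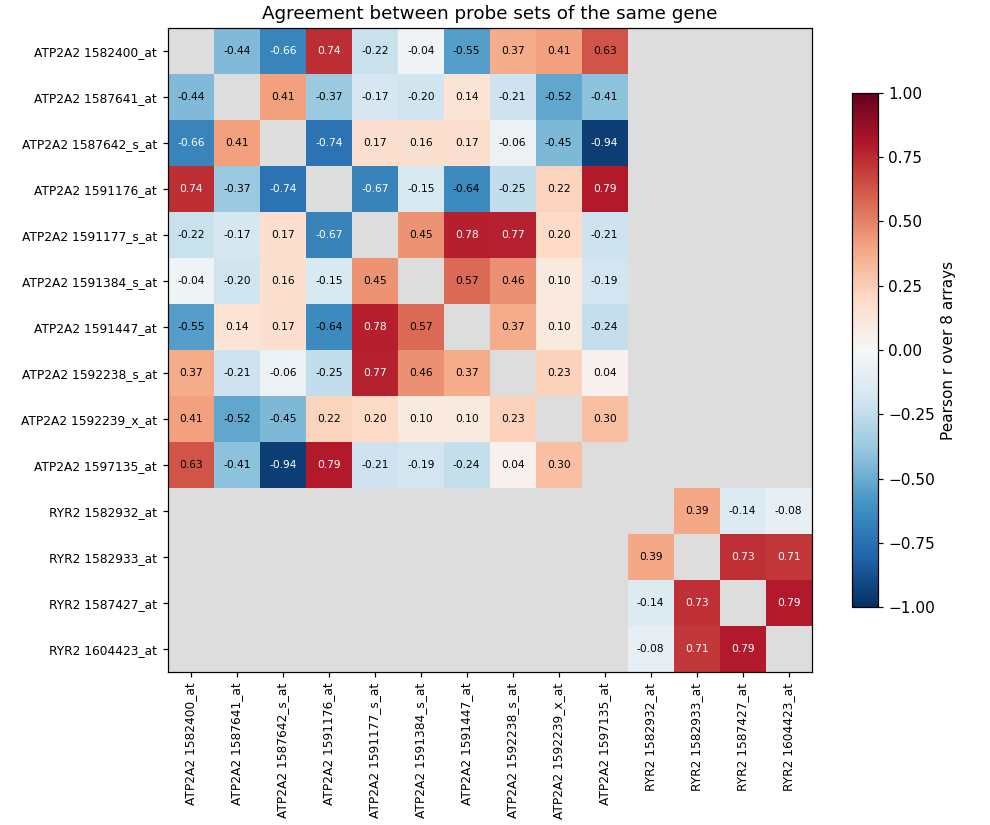
Pearson r between probe sets of the same gene over the 8 arrays, from normalized log2 signals, with colour from blue (negative) to red (positive). Grey cells are the diagonal and pairs of different genes. Among the 10 ATP2A2 probe sets r runs from -0.94 to 0.79, and among the 4 RYR2 probe sets from -0.14 to 0.79.

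The agreement of the probe sets was described by Pearson r over the 8 arrays, which share the dogs, the group difference and the array effects. Over the 45 pairs of ATP2A2 probe sets the median r was 0.04, with 22 pairs below 0 and 6 above 0.5. In 24 of the 45 pairs both differences had the same sign, or 53.3%. The lowest r was -0.94, between 1587642_s_at and 1597135_at, and the highest was 0.79, between 1591176_at and 1597135_at. The brightest probe set, 1582400_at, had r = 0.74 with 1591176_at, and 0.96 after subtraction of the group means, where both were low in 0292. By rank this did not hold, with a Spearman rho of -0.23. With 1592238_s_at it had r = 0.37 and rho = 0.88. Among RYR2 probe sets the median r of the 6 pairs was 0.55, and 0.32 after subtraction of the group means, with 2 pairs below 0. In all 6 pairs both differences between the groups were negative.

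Probe sets from a shared source sequence had a median r of 0.31 over 4 pairs, against 0.04 over the 47 other pairs. The 3 such pairs of ATP2A2 had r of 0.41 (1587641_at and 1587642_s_at), -0.67 (1591176_at and 1591177_s_at) and 0.23 (1592238_s_at and 1592239_x_at), and the RYR2 pair had 0.39. Agreement was also weak over the whole array. Over the 7110 pairs within 2349 genes that have 2 or more probe sets, the median r was 0.11 and 57.1% had the same sign. Among the 384 genes with 4 or more probe sets, 173 had a median r at or below that of ATP2A2 and 360 at or below that of RYR2.

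Multiplying an array by 1 factor leaves the ratio of a pair of its probe sets unchanged, whereas quantile normalization and cyclic loess can change it. The ratio was taken from deposited signals for all 51 pairs of ATP2A2 and RYR2. In 3 pairs, each with 1592238_s_at of ATP2A2, the ratio did not overlap between the groups (exact permutation test, p = 0.0286 before and p = 0.485 after adjustment over the 51 pairs). The log2 ratio of 1592238_s_at over 1597135_at was 2.86, 2.99, 1.94 and 1.17 in D5 to D8, and 0.38, -3.15, -0.57 and 0.56 in 0292, 0294, 1087 and 1111. The log2 ratios of 1591177_s_at and 1591447_at over 1592238_s_at were higher in DM dogs by 1.17 and 2.03. Thus 1592238_s_at was lower in DM dogs relative to each of these 3 probe sets of its gene, although no pair passed adjustment. For RYR2 the log2 ratio of 1587427_at over 1604423_at was -1.06, -0.89, -1.39 and -4.43 in control dogs and -3.23, -6.48, -5.67 and -3.68 in DM dogs. D8 lay among the DM dogs, and the exact permutation test gave p = 0.0857 (adjusted p = 0.624).

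The only probe set of SLC8A1, the gene of the sodium-calcium exchanger, had higher deposited signals in all DM dogs. In this probe set, 1605489_at, they were 70.5 in D5, 56.9 in D6, 11.7 in D7 and 94.5 in D8, and 571 in 0292, 249 in 0294, 568 in 1087 and 348 in 1111. The lowest DM dog thus stood above the highest control dog. The normalized mean was 6.17 ± 0.86 log2 for controls and 8.55 ± 0.80 for DM (SD, n = 4 per group). The difference was 2.37 (SE 0.66, 95% interval 0.96 to 3.79, unadjusted p = 0.00308, adjusted p = 0.115), a level 5.18-fold higher. The methods' t-test gave a P of 0.00675 before adjustment. The control signals were low, at the 30.0th percentile of the tested probe sets, and are not shown to lie above background. NCX1 is abundant in the ventricle, and whether this dim probe set reads its transcript there was not tested. The size of the change therefore depends on the offset, with 2.74 at an offset of 1 and 1.78 at an offset of 64. No other probe set of SLC8A1 was at hand to check it.

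**Figure D4:**
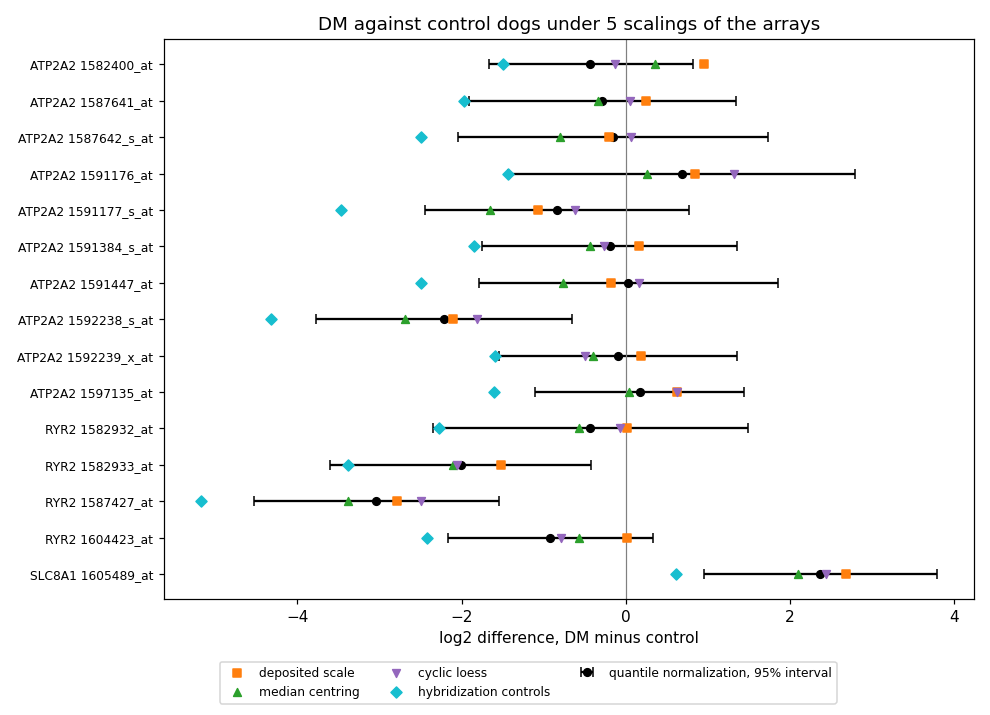
Log2 difference of DM minus control dogs (x axis) for each of the 15 probe sets (y axis), with black points and 95% intervals from limma after quantile normalization and coloured symbols for 4 other scalings of the arrays. RYR2 1587427_at and ATP2A2 1592238_s_at lie below 0 and SLC8A1 1605489_at above 0 under all 5, and 10 probe sets have symbols on both sides of 0.

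The direction depended on the scaling of the arrays in most of these probe sets. Under quantile normalization, the deposited scale, median centring, cyclic loess and scaling to the hybridization controls, 4 probe sets were lower each time, 1 was higher each time and 10 changed sign. The 4 are RYR2 1587427_at (-5.18 to -2.50) and 1582933_at (-3.39 to -1.52), and ATP2A2 1592238_s_at (-4.32 to -1.81) and 1591177_s_at (-3.47 to -0.62). SLC8A1 1605489_at had 0.61 to 2.69. The lowest of each of these 5 ranges is from the hybridization controls, a scaling that put the median over all tested probe sets itself at -1.65. Only 1592238_s_at had no overlap between the groups under all 5. In RYR2 1587427_at they were separate under 3 and in SLC8A1 under 4.

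The decrease in RYR2 1587427_at passed an adjusted p of 0.05 under 7 of the 19 alternatives. Under those 7, 290 to 7675 of the 23836 tested probe sets passed, against 4 in the main comparison. Among the 7, the difference in 1587427_at was -3.44 (adjusted p = 0.0409) without D8 and -3.36 (adjusted p = 0.0416) without 1111. Without D8 and 0292 together, chosen after seeing the data, it was -3.14 (adjusted p = 0.0296). Over all alternatives the adjusted p ran from 0.000909 to 0.308, the highest without D6. SLC8A1 passed under 0 of 20, with an adjusted p of 0.0612 to 0.593.

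Other genes that work beside these were taken from a list of 55 genes of calcium cycling, of which 23 had an annotated probe set. Each gene is given by its brightest probe set. The median difference was -0.36 log2, with 14 genes below 0 and 9 above, and 0 passed an adjusted p under 0.05. At an unadjusted p under 0.05, 2 of the 23 were lower, where 8.97% of all tested probe sets were, and 1 was higher, where 7.79% were. Counts at this threshold do not set the list apart from the array. The 2 lower were HRC, a calcium-binding protein of the reticulum, and PRKAR1A, a regulatory subunit of protein kinase A, and the higher was PRKACA, a catalytic subunit of that kinase. PRKAR1A had 10.13, 9.99, 9.61 and 7.34 log2 in D5 to D8 and 5.71, 6.59, 5.22 and 9.41 in DM dogs, a difference of -2.54 (SE 0.93, adjusted p = 0.201). D8 lay below DM dog 1111 there. PRKACA was dim, with 4.72 to 6.02 in control dogs and 5.78 to 7.33 in DM dogs (1.49, SE 0.63, adjusted p = 0.255). The groups did not overlap in 1 of the 23 that was lower (5.87% of all probe sets) and in 3 that were higher (4.93% of all). The criteria of the methods were met by 1 lower gene, FKBP1B (2.48% of all), and by 1 higher, ATP2B4 (2.44% of all).

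Among genes of proteins that bind to RYR2 or its partners, HRC had 9.29 to 9.85 log2 in the controls and 7.02, 7.82, 9.29 and 7.94 in DM dogs, where 1087 met the control range (-1.58, SE 0.62, adjusted p = 0.228). FKBP1B, which stabilizes the closed channel, had 10.49 to 10.97 and 9.29 to 10.36 without overlap (-1.10, SE 0.56, adjusted p = 0.341). S100A1, which binds both RYR2 and SERCA2, had 9.89 to 11.24 in control dogs and 10.85, 9.24, 6.01 and 8.87 in DM dogs (-1.83, SE 0.88, adjusted p = 0.315). SRI, the gene of sorcin, which also binds RYR2, had a positive difference of 0.68 (adjusted p = 0.585).

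TRDN, the anchor triadin, had a positive difference of 0.99 (SE 0.75, adjusted p = 0.540) in its brightest of 7 probe sets, and 3 of the 7 were negative. In it D8, 0294, 1087 and 1111 had 12.98 to 13.39 log2 and D5, D6, D7 and 0292 had 10.42 to 11.66. That is the division of dogs seen in the deposited signals of ATP2A2 1582400_at. ASPH, whose gene also encodes junctin, had 11.62 to 12.56 in control dogs and 8.58 in 0292 against 12.36 to 12.74 in the other DM dogs (-0.42, SE 0.87, adjusted p = 0.841). Dog 0292 was thus far below the other 7 dogs in this gene.

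ATP2B4 and ATP2B1, pumps of the plasma membrane that also carry calcium out of the cell, had positive differences that did not pass adjustment. ATP2B2, the third such pump measured, had a negative one in its brightest probe set (-0.55, SE 0.77, adjusted p = 0.758). Only 1 of its 3 probe sets was negative, and their median was 0.21. ATP2B4 had 12.57 to 13.85 log2 in the controls and 13.96 to 14.39 in DM dogs (1.08, SE 0.56, adjusted p = 0.353), and 1 of its 7 probe sets had a negative difference. Its brightest probe set met the criteria of the methods. ATP2B1 had 8.86 to 9.55 and 9.89 to 10.25 (0.89, SE 0.54, adjusted p = 0.434), and 0 of its 4 were negative. In both the groups did not overlap. CACNA1C, the pore of the L-type calcium channel, had a difference of -0.31 (SE 0.79, adjusted p = 0.877) in the brightest of its 4 probe sets, whereas the median of the 4 was 1.38.

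The skeletal muscle counterparts ATP2A1 and RYR1 had differences of -0.36 (SE 0.63, adjusted p = 0.816) and 0.55 (SE 0.89, adjusted p = 0.794). Over the 3 probe sets of ATP2A1 the median was 1.01, and the brightest was the only one below 0. Of 7 measured markers of fast skeletal muscle, 6 had a positive difference. The summed level of the 7 was 8.58 to 8.87 log2 in control dogs and 9.69 to 10.70 in DM dogs. At an unadjusted p under 0.05 in limma 3 of the 7 were higher, where 7.79% of all tested probe sets were. These 3 are myosins. MYH1 averaged 6.02 log2 for controls and 8.09 for DM (2.06, adjusted p = 0.239). MYH2 averaged 4.80 and 6.95 (2.16, adjusted p = 0.166), and MYH4 averaged 4.52 and 6.44 (1.92, adjusted p = 0.245). The control levels of MYH2 and MYH4 were near the offset. The difference was 1.24 in TNNC2, 0.60 in TNNT3 and 0.08 in TNNI2, and MYLPF went the other way with -1.10. Whether these markers had a part in the values of the calcium genes was not tested.

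**Figure D5:**
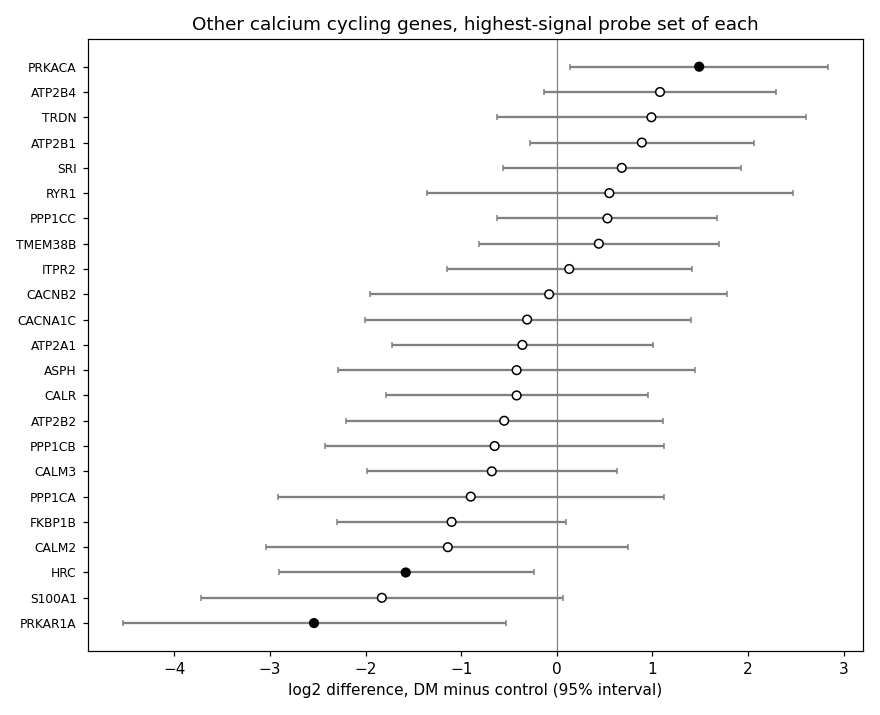
Log2 difference of DM minus control dogs (x axis) with its 95% interval for the 23 other calcium cycling genes measured (y axis), 4 dogs per group. Filled points have an unadjusted p under 0.05 in limma (PRKAR1A and HRC lower, PRKACA higher), and the other 20 intervals span 0.

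The genes with the most similar pattern to the brightest probe set of each gene were found by Pearson r over the 8 arrays. For ATP2A2 1582400_at they were PIN4 (r = 0.993), MEF2C (0.992) and TAF9 (0.991). For RYR2 1604423_at they were FGF13 (0.992), HIGD1A (0.988) and NASP (0.984), and for SLC8A1 1605489_at MITD1 (0.981), NABP1 (0.956) and SH2D4A (0.955). ATP2A2 1582400_at had 14.73 log2 in 0292 and 16.11 to 16.34 in the other dogs, so its r rests mostly on that dog. In RYR2 1604423_at 0292 was also the lowest, at 13.74 against 14.97 to 15.79. Likeness by rank was not examined. The 8 arrays share the group difference and the array effects, so these values are a description.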

How the data were processed

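RNA of the left ventricle of 4 control and 4 DM dogs had been hybridized to the Affymetrix Canine Genome Array. Per the labels and methods, the authors used MAS5 to obtain 1 signal intensity per probe set, deposited on a linear scale. Trimmed by 2% at either end, the mean signal intensity of each deposited array was 500 after rounding. The RMA step named in the methods is not in these values. Symbols were taken from the platform's annotation: of 23836 tested probe sets, 10549 had 1 symbol, 138 had several and 13149 had none listed, and 77 controls of the manufacturer were left out. Symbols of 10046 probe sets were matched to RefSeq (assembly UU_Cfam_GSD_1.0) by gene identifier for the calcium list and the markers. No probe, transcript or protein sequences were used here.

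Quantile normalization was made on the log2 scale over all 23913 probe sets, an offset of 16 stood in for the unspecified variance stabilization of the methods, and limma 3.58.1 (lmFit, eBayes; R 4.3.3) compared the groups, two-sided. The methods' t-test with equal variances used the same values. Single measures were tested by exact permutation. Figures were drawn with matplotlib 3.10.9. The fit was tested on simulated data. The number of arrays limits the precision, and p values measure the spread between these dogs. RNA of both groups was isolated together, per the methods, and no hybridization batch or scan date is given in the sources used here. Sample records of control and DM dogs are numbered in separate ranges and titled in different forms. Any array effect that follows this division cannot be told apart from the group difference.

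The members, the lists and the tests were chosen with earlier results of these data known. Named were all probe sets of the 5 genes, TRDN, ASPH, HRC, FKBP1B, S100A1, ATP2A1, RYR1 and CACNA1C, the 4 further calcium genes with the smallest p, and the 3 genes most like each brightest probe set. SRI, ATP2B2 and the markers TNNI3, MB, MYH7, MYH1, MYH2, MYH4, TNNC2, TNNT3, TNNI2 and MYLPF were named after their values were seen. SLN, JPH2, FKBP1A, CASQ1, ATP2A3 and RYR3 also stood in that rule and had no annotated probe set in the table used here. Markers of endothelial cells (3 of 4 measured lower, 1 higher), fibroblasts (4 lower, 2 higher), smooth muscle cells (3 lower, 1 higher) and leukocytes (4 lower, 4 higher) were read in the same way. Alternatives were other scalings, offsets, a filter, array weights, another variance prior, the methods' t-test, other summaries of genes, and leaving out dogs.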

Additional observations from a re-analysis of the deposited data

Results flagged for a closer look

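Within each group of 4 dogs, the gap between the most extreme dog and its neighbour was set against the whole range, for 15 probe sets in 2 groups. In 4 of these 30 sets of values 1 dog stood apart by more than Dixon's 95% limit for 4 values, which chance alone gives in about 1 of 20. DM dog 0292 stood apart in a pair of ATP2A2 probe sets, with 14.73 log2 in 1582400_at against 16.11 to 16.14 in the other DM dogs, and with 6.79 in 1591176_at against 11.20 to 11.88. Control dog D5 had 16.34 in 1582400_at, where the other 3 control dogs all had 16.16, a margin that is small on the log2 scale. DM dog 0294 had 7.44 in RYR2 1582933_at, and the other DM dogs had 4.80 to 5.13. On the array of 0292 the hybridization controls were also the highest of all 8, at 17.72 log2, and its weight in limma was the lowest, at 0.268. The part of the array in these values was not tested.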

How the results depend on the processing

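Of the 285 differences recomputed for the 15 probe sets, 242 kept their direction and their side of the threshold. Another 12 kept their direction and were past the adjusted p only under the alternative, and 31 turned in direction. Among the 31, ATP2A2 1591447_at was also past the adjusted p when scaled to the hybridization controls (adjusted p = 0.0338). Without quantile normalization, differences turned to 0.95 in ATP2A2 1582400_at, 0.25 in 1587641_at, 0.16 in 1591384_s_at, -0.18 in 1591447_at and 0.19 in 1592239_x_at, and to 0.02 in RYR2 1582932_at and 1604423_at. Median centring turned ATP2A2 1582400_at to 0.36 and 1591447_at to -0.77, and cyclic loess turned 1587641_at to 0.05 and 1587642_s_at to 0.07. Scaling to the hybridization controls turned ATP2A2 1591176_at to -1.44, 1591447_at to -2.50 and 1597135_at to -1.61. Array weights turned ATP2A2 1591384_s_at to 0.09 and 1591447_at to -0.12. The latter was -0.02 with an offset of 1 and -0.55 without D8 and 0292. With 1 dog left out at a time, ranges crossed 0 in ATP2A2 1587641_at (-0.70 to 0.26), 1587642_s_at (-0.96 to 0.68), 1591384_s_at (-0.62 to 0.36), 1591447_at (-0.56 to 0.93), 1592239_x_at (-0.39 to 0.41) and 1597135_at (-0.11 to 0.51), and in RYR2 1582932_at (-0.90 to 0.58). Of the 15 probe sets, the number with an adjusted p under 0.05 was 6 with the hybridization controls, 1 each with an offset of 64, array weights and the trended robust prior, 2 without D8 and 0292, and 0 to 1 with 1 dog left out. The number lower at an unadjusted p was 10 with the hybridization controls, and the number higher was 0 there, 2 without D8 and 0292, and 1 to 2 with 1 dog left out. Among the 23 other calcium genes, 4 were lower at an unadjusted p without quantile normalization, with median centring, with an offset of 64 and with the trended robust prior, 1 with cyclic loess and 14 with the hybridization controls, where 10 passed adjustment. The number higher was 0 with median centring and with the hybridization controls, 2 with array weights, and 4 in the methods' t-test and without D8 and 0292. With 1 dog left out, 1 to 3 were lower and 0 to 1 higher. Over all tested probe sets, 4 passed adjustment in the main comparison and 0 to 7675 under the alternatives, the highest with the hybridization controls. The causes were not tested. The filter on dim probe sets left out ATP2A2 1591384_s_at and 1592239_x_at and RYR2 1582933_at. No paired analysis was possible because the control and DM dogs were different animals. Detection calls were not used, so low signals such as those of SLC8A1 in control dogs are not shown to lie above background.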
